A study of Rattus norvegicus with 10 samples.

Results

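Potassium channel genes of gastrocnemius, a mixed-fibre calf muscle, were compared between aged and young rats. The members were all 90 gene symbols of the deposited expression table that begin with Kcn followed by a letter and a digit, of 19091 symbols in all. Each symbol was represented by its brightest probe set, the group of probes whose combined signal gives 1 intensity per array. A member was called expressed when its mean log2 intensity over the 10 arrays lay above the median over all probe sets and arrays (3.78, an intensity of 13.75) and dim otherwise, which gave 49 expressed and 41 dim members. The aged group held 5 male Sprague-Dawley rats of the 24-month label, 28 months old at necropsy, and the young control group 5 males of the 6-month label, 7 months old at necropsy. The labels name no engineered allele and no agent for either group, and 1 array was hybridised per animal with RNA of the whole lateral gastrocnemius of the left leg. The series sets these animals against each other to study age-related muscle wasting.

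Potassium channels let potassium leave or enter the cell and so set the resting potential and end the action potential of a muscle fibre. Voltage-gated channels open on depolarisation, inward rectifiers hold the membrane near rest, two-pore channels carry a leak current, and calcium-activated channels couple the membrane to calcium inside the cell. Auxiliary subunits change the gating or traffic of these pores. In skeletal muscle, inward rectifiers and channels closed by ATP link excitability to the energy state of the fibre, and the small-conductance calcium-activated channel is known as a channel of denervated fibres.

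The arrays carried the signal of skeletal muscle: the 7 fibre markers, among them Acta1, Ckm and Des, had mean log2 intensities between 12.57 and 14.57 on their own probe sets. Of these 7, Mb, the oxygen store myoglobin, rose 1.16-fold (adjusted p = 0.0365) and Myh1, a fast myosin heavy chain, fell 1.77-fold (adjusted p = 0.00122), both without overlap. The other 5 did not pass, though the groups did not overlap in Acta1 either (21552.7 to 22882.8 in aged and 20761.4 to 21296.5 in young animals). The summed intensity of the 7 was 117539 to 123130 in aged and 118541 to 122112 in young animals. Ckm reached 24720 (aged replicate 4) and Tnnt3 24772.6 (young replicate 2), where the highest intensity on any array was 25989.2. Signals this near the top may be compressed, so like sums do not show like amounts of fibre. The part of a change in fibres in the channel values was not tested. Pearson's r across probe sets was 0.977 to 0.995 for pairs of arrays, and the median intensity of an array was 13.46 to 13.74 in aged and 13.79 to 13.99 in young animals. Of the aged columns, 2 carry the word REPLACEMENT where the others give a rat number. Whether an animal or an array was replaced is not given. Such whole-muscle RNA cannot tell fewer cells of a type apart from less RNA per cell.

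Of all 90 members 13 passed (14.4%, against 22.4% of all symbols). In aged muscle 5 of the 90 were higher (5.56%, against 13.8% of all symbols) and 8 lower (8.89%, against 8.69%). Of the 49 expressed members 12 passed the test (24.5%), against 31.0% of all expressed symbols, with limma's moderated test at an adjusted p under 0.05 over all 43686 probe sets. Among the expressed members 4 rose (8.16%, against 19.4% of all expressed symbols) and 8 fell (16.3%, against 11.6%). The median log2 fold change, aged minus young, was -0.12 over the 49 expressed members and 0.017 over all expressed symbols. Of the 49, 35 were below 0 (71.4%, against 47.5% of all expressed symbols). Over all 90 members 65.6% were below 0, against 52.6% of all symbols. Over the 41 dim members it was 58.5%, against 63.6% of all dim symbols. This share thus differed between expressed and dim symbols, and the members were not matched to symbols of like intensity. Among the 41 dim members 1 rose and 0 fell (2.44% called, against 3.97% of all dim symbols, of which 1.62% rose and 2.35% fell), while 3 of the 41 had an unadjusted p under 0.05. At a change of at least 1.5-fold 3 members rose and 4 fell, all of them expressed, where 8.52% of all symbols and 12.2% of expressed ones were called. The groups did not overlap in 10 of the 90 members, all of them called (11.1%, against 17.3% of all symbols). Of these 10, 9 were expressed (18.4%, against 23.6% of all expressed symbols) and 1 was dim (2.44%, against 3.67%).

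**Figure D1:**
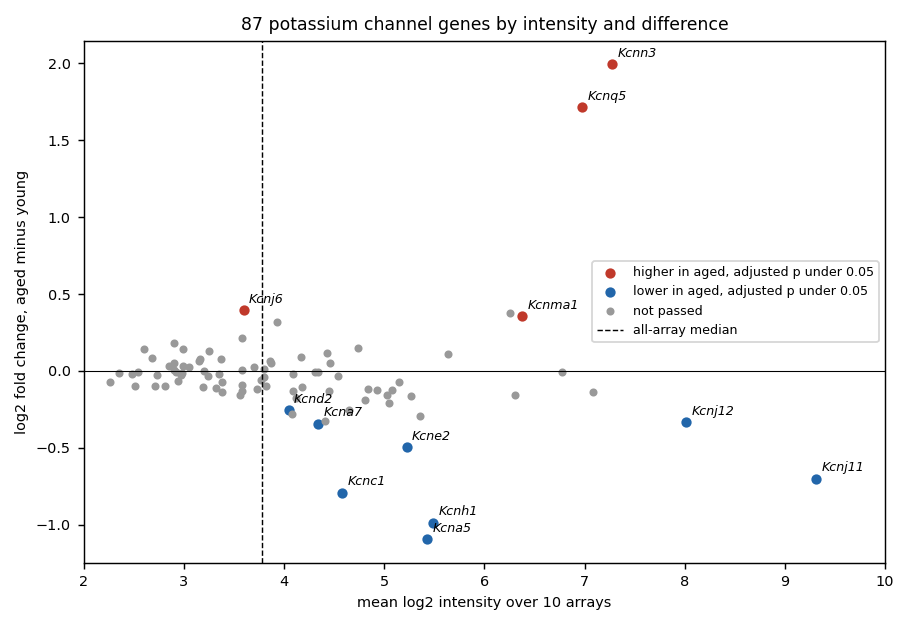
Each of 87 potassium channel genes by its mean log2 intensity over 10 arrays (x axis) and its log2 fold change, aged minus young (y axis), with the all-array median of 3.78 as a dashed line. Red points rose and blue points fell at an adjusted p under 0.05, grey points did not pass; Kcnn3 and Kcnq5 stand above the rest, and of the 12 called members drawn Kcnj6 alone lies left of the line.

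The calls lay in the voltage-gated, inward rectifier, calcium-activated and auxiliary classes. Of 16 expressed voltage-gated pore-forming genes 2 rose and 5 fell (43.8% called, against 31.0% of all expressed symbols). Of 10 expressed inward rectifiers 2 fell (20%), of 5 expressed calcium- or sodium-activated genes 2 rose (40%), and of 9 expressed auxiliary subunits 1 fell (11.1%). With so few genes in a class, these shares are counts only and were not tested against the background. Of the 13 two-pore genes 5 were expressed and 8 dim. Of the 10 silent modifiers, which alter other voltage-gated channels and form no channel alone, 4 were expressed and 6 dim. In these classes 0 passed in limma's test, expressed and dim genes together, with 2 and 1 at an unadjusted p under 0.05. Of all symbols 31.0% of expressed and 3.97% of dim ones passed, so 0 in so few expressed genes does not show a class without change.

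**Figure D2:**
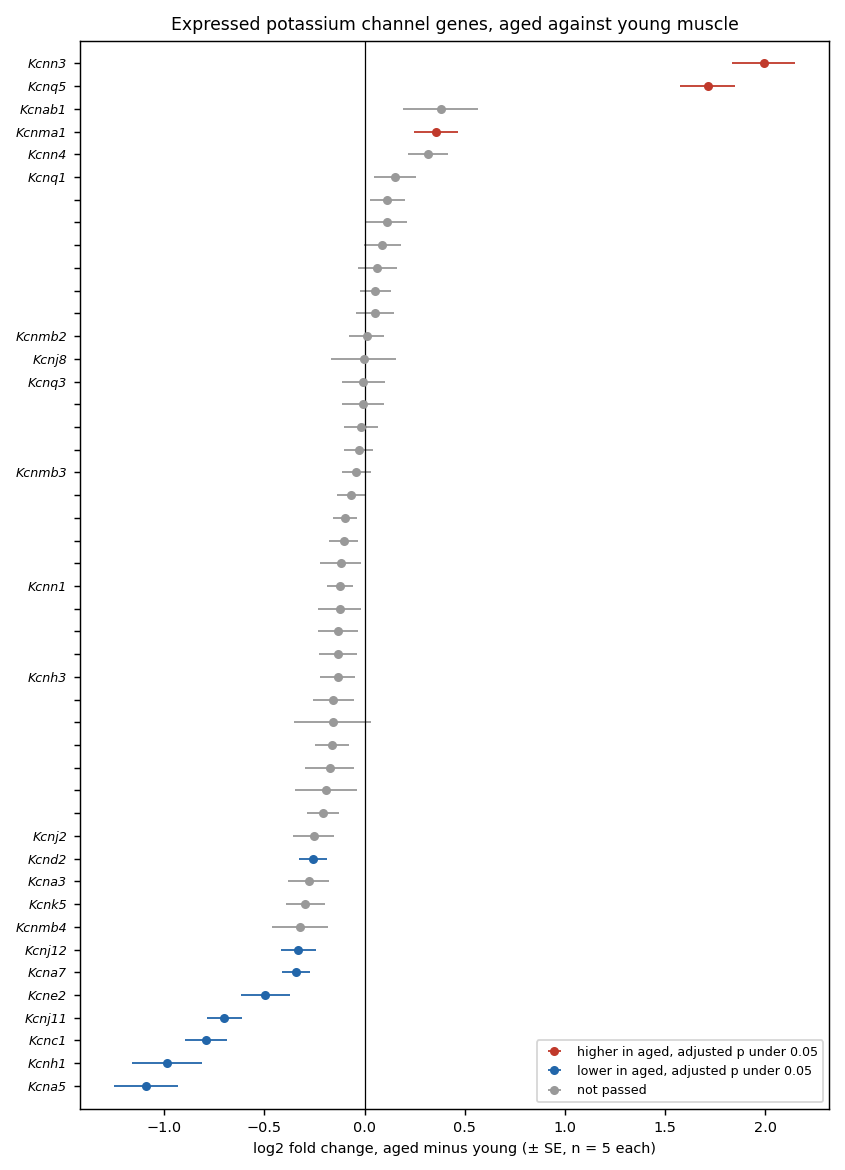
Log2 fold change, aged minus young, of 46 expressed potassium channel genes, those named in the text labelled, with limma's standard error (n = 5 each). Red points rose and blue points fell at an adjusted p under 0.05; the changes run from 1.99 for Kcnn3 to -1.09 for Kcna5, and most grey points lie below 0.

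Kcnn3 encodes the small-conductance calcium-activated potassium channel that fibres express before innervation and again after loss of the nerve. Its deposited intensity was 212, 427, 287, 279.8 and 385 in aged replicates 1 to 5, against 77.9, 85.8, 72.8, 84.1 and 68.3 in young replicates 1 to 5. Every aged animal stood above every young one, and the lowest aged animal was replicate 1. The mean log2 intensity was 8.27 ± 0.40 in aged and 6.28 ± 0.14 in young muscle (SD, n = 5 each), a rise of 3.98-fold (log2 fold change 1.99 ± 0.16 SE, adjusted p = 1.68e-05). Its relatives among the calcium-activated genes gave other values: Kcnn1 had a log2 fold change of -0.12 ± 0.065 (adjusted p = 0.246) and the dim Kcnn2 one of -0.098 ± 0.088 (adjusted p = 0.521). Kcnn4, a further relative, lay on the same side as Kcnn3 and missed the threshold (0.32 ± 0.10, adjusted p = 0.0523). Kcnn1 and Kcnn2 were picked as the paralogues of Kcnn3, outside the rule for named genes.

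Kcnq5, deposited under its older symbol Kcnq5l, encodes a slowly activating voltage-gated channel of the family that carries the M current. Its brightest probe set read 159.6, 219, 223, 252 and 309.9 in aged replicates 1 to 5, against 66.9, 69.9, 71.2, 64.5 and 75.0 in young replicates 1 to 5. The groups were far apart, with aged replicate 1 again the lowest aged animal. Kcnq5 rose 3.28-fold (log2 fold change 1.71 ± 0.14, adjusted p = 1.68e-05). It had 8 probe sets, the most of any member, and 7 of them rose, including all 5 expressed ones, whose folds lay between 2.64 and 3.73. The 3 dim probe sets gave smaller values (1.02-fold to 1.33-fold), the dimmest of them not passing (adjusted p = 0.903). Its relatives Kcnq1 and Kcnq3 did not pass, with log2 fold changes of 0.15 ± 0.10 for Kcnq1 and -0.0070 ± 0.11 for Kcnq3 on their brightest probe sets. A second expressed probe set of Kcnq3 differed from its first, at -0.38 ± 0.12 (adjusted p = 0.0601), and Kcnq3 passed as lower with the mean over its probe sets. Both were added as paralogues, outside the rule for named genes.

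**Figure D3:**
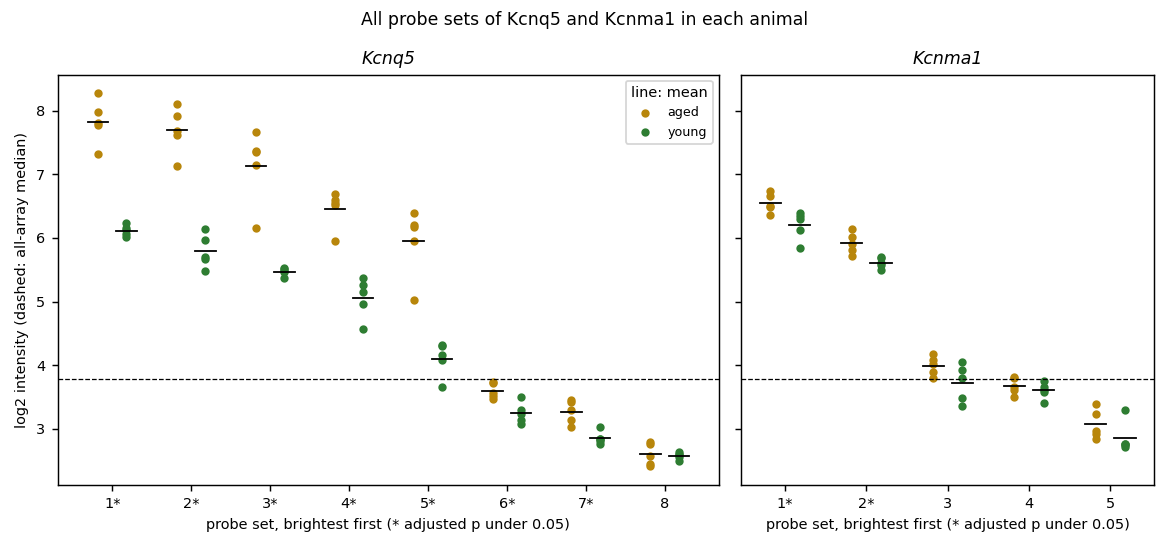
Log2 intensity of every probe set of Kcnq5 (8) and Kcnma1 (5) in each animal, aged left of young within a probe set, with the group mean as a line and the all-array median of 3.78 dashed. Asterisks mark an adjusted p under 0.05: 7 probe sets of Kcnq5 and the 2 brightest of Kcnma1 rose.

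The promoters of the genes with the largest rise and the largest fall are shown, as reference sequence from RefSeq (GRCr8), because they are the start regions of the transcripts that differ most; 61 of the 90 members had an entry. Capitals mark CAGCTG and CACCTG, both searched on either strand (CACCTG reads CAGGTG on the other), which are forms of the E-box CANNTG to which myogenic factors bind. The sequences run 5′ to 3′, from 250 bases before to 50 after the gene's start. Kcnn3 lies at chr2:177234090-177234389 on the plus strand, Kcnq5 at chr9:31891232-31891531 on the minus strand and Kcna5 at chr4:161043760-161044059 on the minus strand.
Kcnn3: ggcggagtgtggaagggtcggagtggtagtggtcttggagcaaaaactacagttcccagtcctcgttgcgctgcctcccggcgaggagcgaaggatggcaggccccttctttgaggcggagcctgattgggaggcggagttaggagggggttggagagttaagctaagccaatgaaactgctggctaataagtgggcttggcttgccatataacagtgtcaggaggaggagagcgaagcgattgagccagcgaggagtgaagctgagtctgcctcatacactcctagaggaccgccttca
Kcnq5: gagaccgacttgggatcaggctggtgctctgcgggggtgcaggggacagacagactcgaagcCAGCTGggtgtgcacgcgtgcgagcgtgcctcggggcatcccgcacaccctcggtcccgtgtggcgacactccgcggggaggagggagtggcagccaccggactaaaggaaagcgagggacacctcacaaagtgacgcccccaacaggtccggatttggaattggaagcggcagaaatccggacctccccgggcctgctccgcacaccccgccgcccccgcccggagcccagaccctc
Kcna5: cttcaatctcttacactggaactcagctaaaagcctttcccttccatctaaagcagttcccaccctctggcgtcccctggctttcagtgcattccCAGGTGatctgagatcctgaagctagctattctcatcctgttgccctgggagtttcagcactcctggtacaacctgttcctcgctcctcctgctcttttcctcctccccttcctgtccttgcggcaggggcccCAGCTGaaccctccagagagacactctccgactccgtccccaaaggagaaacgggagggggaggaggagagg

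In these windows Kcnn3 held neither form, Kcnq5 held CAGCTG 188 bases before the start, and Kcna5 held CAGGTG 155 bases and CAGCTG 22 bases before it. CAGCTG occurred in 27.9% of the 61 member promoters and 15.1% of all 27457, and CACCTG in 26.2% against 18.7%. Among the called members with an entry, CAGCTG was present in 1 of 4 that rose and 1 of 4 that fell. It was present in 15 of the 53 members that did not pass (28.3%). CACCTG was present in 1 of 4 that rose, 2 of 4 that fell and 13 of the 53 that did not pass (24.5%). The wider CANNTG, which includes both forms, occurred in 68.9% of member promoters and 71.7% of all. These matches are letters in a window and were not tested for binding.

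Kcnma1 and Kcnj6 rose by less. Kcnma1, the pore of the large-conductance BK channel opened by calcium and voltage, read 89.5, 100.95, 82.6, 91.1 and 107.3 in aged replicates 1 to 5, against 57.2, 78.9, 83.7, 69.4 and 81.1 in young replicates 1 to 5. The groups overlapped, since young replicate 3 exceeded aged replicate 3. Its rise of 1.28-fold (log2 fold change 0.36 ± 0.11, adjusted p = 0.0434) held the least often of the 13 calls, namely in 11 of 21 alternative settings and not with quantile normalization (0.26, adjusted p = 0.148). Its adjusted p lay between 0.0556 and 0.106 without any 1 of aged replicates 2, 4 and 5 and young replicates 1, 2 and 4. A further probe set of Kcnma1 rose 1.24-fold without overlap (adjusted p = 0.0245), and the other 3 did not pass. Without aged replicate 5, or without young replicate 1, 3 members rose in place of 5. The dim Kcnj6, a channel gated by G proteins, read 14.1, 11.4, 15.3, 14.1 and 14.9 in aged replicates 1 to 5, against 11.3, 10.8, 10.1, 10.2 and 10.5 in young replicates 1 to 5. Aged replicate 2 sat almost at the highest young value. Kcnj6 rose 1.31-fold (log2 fold change 0.39 ± 0.084, adjusted p = 0.00643), none of its 3 further probe sets passed, and the mean over its 4 probe sets did not pass either (0.14, adjusted p = 0.0791).

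**Figure D4:**
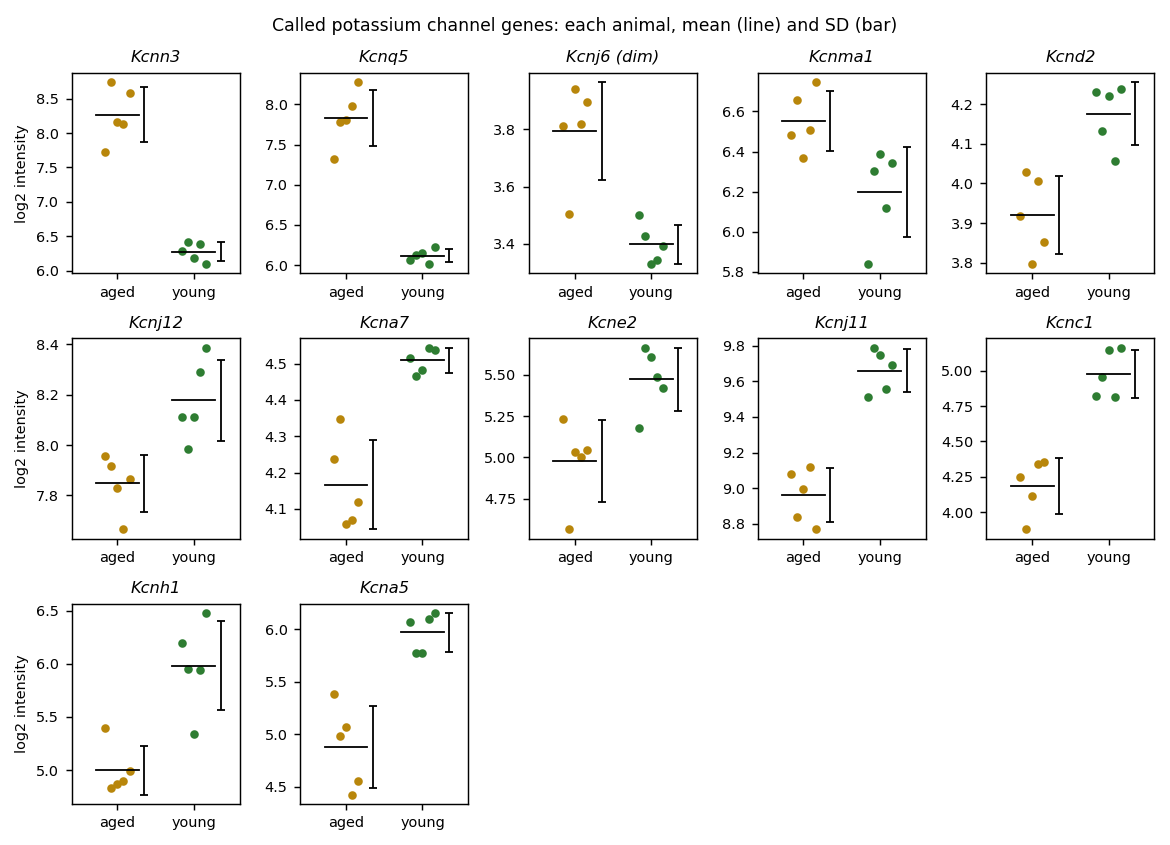
Log2 intensity of 12 called potassium channel genes in each aged (left) and young (right) animal, with the mean as a line and the SD as a bar (n = 5 each) and an axis of its own for each gene. The groups overlap in Kcnma1, Kcne2 and Kcnh1 and not in the other 9.

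Among the inward rectifiers the pore of the ATP-sensitive channel and a strong rectifier of the resting membrane fell. Kcnj11, the pore that closes when ATP is high, read 542, 458, 510.5, 555 and 436 in aged replicates 1 to 5, against 729.6, 886, 861, 754 and 827 in young replicates 1 to 5. All aged animals were below all young ones by a wide margin, and the fall was 1.62-fold (log2 fold change -0.70 ± 0.087, adjusted p = 0.000246). The sulfonylurea receptors that surround this pore did not pass: log2 fold changes were -0.0018 ± 0.11 for Abcc9 (adjusted p = 0.994) and 0.24 ± 0.13 for Abcc8 (adjusted p = 0.237). Kcnj12, a strong inward rectifier of fibres, read 249, 242, 228, 203 and 233 in aged replicates 1 to 5, against 277, 253, 277, 313 and 335 in young replicates 1 to 5. The groups were close but did not overlap, with a fall of 1.26-fold (log2 fold change -0.33 ± 0.088, adjusted p = 0.0217). Kcnj12 did not pass without young replicate 4 (adjusted p = 0.0586) or young replicate 5 (adjusted p = 0.0547). Its largest adjusted p, 0.111, came without the 2 REPLACEMENT columns.

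Kcnj2, which builds the same kind of strong rectifier, ranged from 19.1 to 25.5 in aged and from 22.7 to 30.4 in young animals and did not pass (log2 fold change -0.25 ± 0.10, adjusted p = 0.124). Kcnj8, the pore of the vascular form of the ATP-sensitive channel, ranged from 76.7 to 145.4 in aged and from 95.8 to 137.5 in young animals, with a log2 fold change of -0.0049 ± 0.16 (adjusted p = 0.988). Of 6 measured markers of smooth muscle and pericytes, the cells in which Kcnj8 is known, 0 rose and Cnn1 and Rgs5 fell, Rgs5 with overlap. The other 4 did not pass, with log2 fold changes of -0.23 for Myh11, -0.17 for Smtn, 0.13 for Cspg4 and 0.014 for Pdgfrb. The summed intensity of these markers was 369.9 to 490.3 in aged and 501.3 to 549.2 in young animals, so it was lower in aged muscle without overlap; its part in the values of Kcnj8 and Kcnma1 was not tested.

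Voltage-gated genes of several subfamilies fell. Kcna5, a delayed rectifier, read 41.7, 31.8, 33.5, 21.5 and 23.5 in aged replicates 1 to 5, against 67.1, 54.8, 54.6, 68.6 and 71.2 in young replicates 1 to 5. Aged replicate 1 was nearest to the young animals, and the fall of 2.13-fold was the largest among the members (log2 fold change -1.09 ± 0.16, adjusted p = 0.000693). Kcnh1, a channel of the ether-a-go-go family known from human myoblasts that are about to fuse, read 41.97, 28.5, 29.2, 29.8 and 31.9 in aged replicates 1 to 5, against 73.5, 62.0, 40.6, 61.3 and 89.3 in young replicates 1 to 5. Aged replicate 1 and young replicate 3 overlapped, while the other 4 aged animals lay below all young ones. Kcnh1 fell 1.98-fold (log2 fold change -0.99 ± 0.18, adjusted p = 0.00222). Kcnc1, a fast-gating channel that permits high firing rates in neurons, read 19.0, 14.7, 17.4, 20.3 and 20.4 in aged replicates 1 to 5, against 28.3, 31.0, 35.4, 28.1 and 35.8 in young replicates 1 to 5. There was no overlap, with a fall of 1.73-fold (log2 fold change -0.79 ± 0.11, adjusted p = 0.000387), and its dim second probe set did not pass (adjusted p = 0.153).

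Smaller decreases were found in Kcna7, Kcnd2 and Kcne2. Kcna7, a voltage-gated channel known from heart and skeletal muscle, read 18.9, 20.4, 16.7, 16.8 and 17.4 in aged replicates 1 to 5, against 22.9, 22.1, 22.4, 23.3 and 23.2 in young replicates 1 to 5. The young values were tightly grouped (SD of log2 intensity 0.12 in aged and 0.034 in young animals), and the gene fell 1.27-fold (adjusted p = 0.00533). Kcnd2, which carries a fast transient current, read 15.1, 16.3, 13.9, 16.1 and 14.5 in aged replicates 1 to 5, against 18.8, 17.5, 18.6, 16.7 and 18.9 in young replicates 1 to 5. Its fall of 1.19-fold passed (adjusted p = 0.0255), although none of its 3 further probe sets did, nor the mean over the 4 (adjusted p = 0.0901). The brightest of these 3, also expressed, lay on the other side of 0 (0.043 ± 0.080, adjusted p = 0.782), and the dim ones gave -0.20 and -0.093. The called probe set had a mean log2 intensity of 4.05, not far above the split at 3.78. The adjusted p of Kcnd2 lay between 0.0578 and 0.0657 without any 1 of aged replicates 3 and 5 and young replicates 1, 3 and 5. Kcne2, a single-span auxiliary subunit of several voltage-gated pores, read 37.7, 23.6, 32.7, 32.1 and 33 in aged replicates 1 to 5, against 36.3, 50.8, 48.8, 44.9 and 42.7 in young replicates 1 to 5. Aged replicate 1 exceeded young replicate 1, and the fall was 1.41-fold (log2 fold change -0.50 ± 0.12, adjusted p = 0.0146). Its second probe set, also expressed, gave -0.24 ± 0.083 and did not pass (adjusted p = 0.0734).

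Aged replicate 1 stood closest to the young group in 6 of the 13 called members and farthest in 0. Its mean shift from the young mean was 0.74 over the 5 members that rose, against 0.92 to 1.27 in the other aged animals, and -0.43 over the 8 that fell, against -0.69 to -0.65. Without this animal the same 13 members passed. Over all probe sets 4100 rose and 3527 fell without it, against 3535 and 3001 with every array. Its place among the aged animals was not counted over all symbols, so it is not shown to be particular to the members.

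The expressed members that missed the threshold with the largest differences were Kcnab1, Kcnmb4 and Kcnn4. Kcnab1, a beta subunit of voltage-gated channels, ranged from 63.7 to 117.9 in aged and from 51.2 to 80.3 in young animals (log2 fold change 0.38 ± 0.19, adjusted p = 0.207). Kcnmb4, a beta subunit of the BK channel, had a log2 fold change of -0.32 ± 0.14 (adjusted p = 0.152). Kcnn4, the intermediate-conductance calcium-activated channel of immune and red blood cells, ranged from 14.1 to 20.5 in aged and from 12.6 to 14.9 in young animals (log2 fold change 0.32 ± 0.10, adjusted p = 0.0523). It was called without aged replicate 4 (adjusted p = 0.0148) and in 9 of 21 alternative settings in all. Of 5 macrophage markers 3 rose (Cd68, Csf1r and Adgre1), and their summed intensity over the 5 was 537.2 to 882 in aged and 256.4 to 519.3 in young animals, without overlap. Of 6 lymphocyte markers 0 passed in limma's test, with sums of 116.3 to 177.5 in aged and 117.3 to 127.0 in young animals. Of 2 measured red blood cell markers 0 passed, with sums of 448.8 to 5321.8 in aged and 1039.2 to 1815.5 in young animals. The part of these cells in the values of Kcnn4 was not tested.

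The bright Kcnh3 (log2 fold change -0.13 ± 0.088, adjusted p = 0.354) and, of the genes chosen for their known place in muscle, Kcna2 (-0.019 ± 0.081), Kcnk2 (-0.14 ± 0.078) and Kcne3 (0.086 ± 0.076) did not pass, Kcna2, Kcnk2 and Kcne3 being dim. The members just above the split were Kcnmb3 and Kcnmb2 (mean log2 intensity 3.80 each), and those just below were Kcnmb1 (3.78) and Kcnh4 (3.73). Kcng1 did not pass on its brightest probe set (adjusted p = 0.386) but fell on a dimmer one (-0.24, adjusted p = 0.0462). In all, 36 members had more than 1 probe set, and no called member had a further one that passed in the opposite direction.

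Genes outside the Kcn symbols that build, anchor or regulate these channels were taken from a list of 29, of which 27 were measured. Of these 27, 2 rose, 8 fell and 17 did not pass. Their median log2 fold change was -0.071, against -0.013 over all symbols, of which 13.8% rose and 8.69% fell. Only 5 of the 27 were dim, and over all expressed symbols the median was 0.017, with 19.4% higher and 11.6% lower. Lrrc38 and Lrrc52, gamma subunits that ease the opening of the BK channel, fell 2.03-fold (adjusted p = 0.00246) and 2.64-fold (adjusted p = 0.015), opposite to the pore gene Kcnma1. Lrrc38 read 33.9, 22.4, 19.4, 22.6 and 20.5 in aged replicates 1 to 5, against 65.0, 31.0, 53.4, 45.2 and 47.8 in young replicates 1 to 5. Only aged replicate 1 and young replicate 2 overlapped in Lrrc38, whereas Lrrc52 was spread in both groups, from 15.3 to 51.1 in aged and from 44.2 to 167.6 in young animals, and did not pass with robust variance moderation (adjusted p = 0.0566). The remaining gamma subunits Lrrc26 and Lrrc55 did not pass.

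Dlg1, a scaffold that binds voltage-gated and inward rectifier channels, fell 1.51-fold (adjusted p = 0.00384). Dlg4, a related scaffold, fell 1.26-fold (adjusted p = 0.0154) on a dim probe set, and the mean over its 3 probe sets did not pass (adjusted p = 0.22). Lgi1, a secreted protein tied to voltage-gated channels of axons, fell 2.29-fold (adjusted p = 0.0329), from values of 14.3 to 71.1 in aged and 42.7 to 74.2 in young animals. The call of Lgi1 held in 10 of 21 alternative settings, with an adjusted p of up to 0.13 without the 2 REPLACEMENT columns. It was lost without any 1 of aged replicates 2 to 5 and young replicates 2, 3 and 5 (adjusted p between 0.0569 and 0.0818). Ank3, the ankyrin that anchors channels of the Kcnq family in axons, fell 1.41-fold without overlap (adjusted p = 0.000774), while Kcnq5 rose. Calm3, a gene for calmodulin, the calcium sensor of the small-conductance channel, fell 1.32-fold (adjusted p = 0.00789). It did not pass without the 2 REPLACEMENT columns (adjusted p = 0.0591). Calm2, which encodes the same protein, had a log2 fold change of -0.24 ± 0.13 and did not pass. Hcn2, a cation channel opened by hyperpolarisation, fell 1.37-fold (adjusted p = 0.00319).

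Tmem38b and Sgk1 were the genes of this list that rose. Tmem38b, a potassium-permeable channel of the endoplasmic reticulum, read 1457, 2078, 1934, 1269 and 2038 in aged replicates 1 to 5, against 781, 767, 650.1, 755 and 615 in young replicates 1 to 5. The groups did not overlap, and the rise was 2.42-fold (log2 fold change 1.28 ± 0.14, adjusted p = 8.79e-05). Its muscle-rich relative Tmem38a did not pass (log2 fold change -0.21 ± 0.074, adjusted p = 0.081). Sgk1, a kinase that regulates the surface level of many channels, read 601, 939.9, 894, 736 and 1003 in aged replicates 1 to 5, against 470.2, 301, 367, 320.4 and 322 in young replicates 1 to 5, a rise of 2.34-fold (adjusted p = 0.000214) without overlap.

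**Figure D5:**
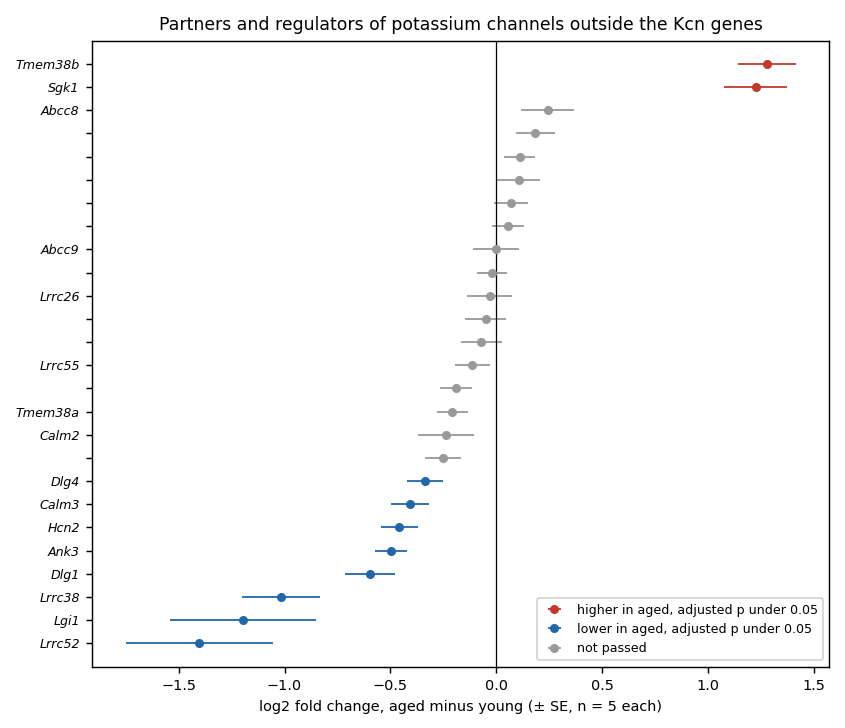
Log2 fold change, aged minus young, of 26 genes that build, anchor or regulate potassium channels outside the Kcn symbols, those named in the text labelled, with limma's standard error (n = 5 each). Tmem38b and Sgk1 rose, 8 genes fell with Lrrc52 at -1.40 the lowest, and the sulfonylurea receptor genes Abcc8 and Abcc9 lie among the 16 that did not pass.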

How the data were processed

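Biotin-labelled complementary RNA of 5 aged and 5 young muscles was hybridised to 1-colour arrays (labels' protocols). Each deposited intensity is linear, and the authors normalized the arrays with RMA, per the submitters' processing notes; version, settings, array annotation and genome build are not given in the sources used here. RMA removes shifts shared by most transcripts and compresses differences of dim probe sets. No detection measure came with the values, so dim is not absent, and the number of arrays limits the precision.

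One deposited table gives symbols and group columns for 43686 probe sets and was used for the fit; the second holds the same intensities for 43685 and gave values per replicate. No column was left out. Intensities were log2-transformed without a pseudocount and fitted with limma (version 3.58.1, R 4.3.3; lmFit and eBayes, two-sided, age as the only term), with Benjamini-Hochberg adjustment over all probe sets. The script was tested on simulated data. Folds are ratios of geometric means. Symbols were brought up to date through RefSeq's GRCr8 gene table: all 90 matched, 2 under a newer symbol.

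Members, classes and lists were chosen with earlier results of these data known. Named are members that passed, the 6 brightest, 2 on either side of the split, a list of 16 muscle channels (Kcnc4 is not analysed here), the 3 largest differences that missed the threshold, members with discordant probe sets, and called genes of the list of 29. A few genes are counted but not reported singly here. Animals are separate and replicate numbers do not pair them: deviations of same-numbered animals correlated between -0.12 and 0.027.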

Additional observations from a re-analysis of the deposited data

Results flagged for a closer look

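In 3 of 56 groups of 5 animals, formed from the 28 named members, 1 animal lay apart from the other 4 by Dixon's criterion; chance flags about 1 in 20 groups. All 3 were young animals with a high value of a dim or nearly dim beta subunit gene of the BK channel. Kcnmb3 read 15.81 in young replicate 3, against 13.43 to 14 in the other young animals. Kcnmb2 read 16.61 in young replicate 2, against 12.89 to 13.5. Kcnmb1 read 15.36 in young replicate 4, against 13.4 to 13.87. None of these genes passed the comparison of the groups.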

How the results depend on the processing

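Of the 13 called members 8 (Kcnn3, Kcnq5, Kcnj11, Kcna5, Kcnc1, Kcnh1, Kcna7 and Kcne2) passed in the same direction in all 21 alternative fits; the counts for Kcnma1, Kcnj12 and Kcnd2 were 11, 17 and 13 of 21, and Kcnj6 passed in 19 of 20. Leaving out 1 array gave 3 to 5 members higher and 6 to 9 lower, of expressed ones 2 to 4 higher and 6 to 9 lower, and 7 to 8 of the other listed genes lower. With a pseudocount of 16, 3 members rose, 2 of them expressed, and 8 fell. At a minimum of 1.5-fold, 3 members rose and 4 fell, all 4 expressed, and 4 of the other listed genes fell; here the stricter criterion itself lowers the counts. Scaling gave a share of higher calls among members of 35.7% with quantile normalization and 42.9% with median centring, against 38.5% as reported. Signs turned in members that were never called. Kcna2 gave 0.016 with quantile normalization and 0.011 with median centring. Kcnj8 gave 0.025 with median centring and 0.030 without the REPLACEMENT columns, and Kcnmb2 gave -0.040 without those columns. Without single arrays Kcna2 ranged from -0.061 to 0.014, Kcnj8 from -0.11 to 0.12 and Kcnmb2 from -0.032 to 0.076. The cause was not tested. With the replicate number as a block (replicate block) 5 members rose and 7 fell: Kcnj12 (adjusted p = 0.0569) and Kcnd2 (adjusted p = 0.0791) were lost and Kcnk5 was gained. The block moved no count by over 1.5 times; the numbers do not pair the animals. Signal near background limits the dim members, whose differences RMA compresses.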

Other observations

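Two-pore genes, which carry leak currents, had log2 fold changes from -0.30 to 0.089 over 13 members. The most negative of them, Kcnk5, chosen here after its values were seen, ranged from 29.8 to 43.5 in aged and from 40.9 to 48.8 in young animals and missed the threshold (log2 fold change -0.30 ± 0.097, adjusted p = 0.0572). Kcnk5 passed as lower with quantile normalization, with dim probe sets filtered out, with 1 probe set per symbol, without aged replicate 5, without young replicate 1 and with the replicate block. Its second probe set gave -0.040 ± 0.073 (adjusted p = 0.774). Kcna3, a voltage-gated channel of lymphocytes, also chosen after its values were seen, ranged from 13.8 to 18.3 in aged and from 16.4 to 22.9 in young animals (-0.28 ± 0.10, adjusted p = 0.0822). Kcnab1 was spread among aged animals (SD of log2 intensity 0.42 in aged and 0.28 in young animals).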
